A study of Mus musculus with 6 samples.

Results

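Expression of EGF family ligands, ErbB receptors and 1 inhibitor of these receptors was compared between uteri with and without Cre-activated SF1, over 10 listed genes: Egfr, Erbb2, Erbb3, Erbb4, Areg, Ereg, Hbegf, Tgfa, Btc and Errfi1. Members were all probe sets that the platform annotation gives exactly 1 gene symbol from that list. The rule found 21 probe sets for 9 of the 10 genes, out of 18193 genes in all. No probe set in the table used here is listed under Areg alone, so Areg was not analysed. The genes were chosen with earlier results of these arrays known.

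Uterine horns of C57BL6J mice were profiled on 6 Affymetrix whole-genome mouse arrays, 3 per genotype, each with RNA pooled from 2 uteri. The control group carried SF1LsL/+, a transgene for the nuclear receptor SF1 that stays silent until Cre removes a stop. The experimental group (SF-1 transgenic), called SF1 here, carried Pgrcre/+ as well, which by design turns the transgene on in cells that express the progesterone receptor gene Pgr. In uterus these include epithelium, stroma and muscle. Both groups therefore carried the transgene, only the SF1 group carried Cre and the altered Pgr locus, and no array held Pgrcre/+ alone. The labels give neither the age of the mice nor the kind of surgery that preceded tissue collection, so the hormonal state of the horns is not known here.

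ErbB receptors are tyrosine kinases of the cell surface that work in pairs. Egfr binds the EGF-like ligands, Erbb3 and Erbb4 bind neuregulins, Erbb2 has no known ligand of its own and serves as the preferred partner, and Erbb3 has little kinase activity. The ligands are made as membrane-bound precursors that metalloproteinases cut free, and active receptors signal through adaptors to the MAP kinase and PI3 kinase pathways. In mouse uterus, Hbegf, Areg and Ereg are known for their expression around embryo attachment, Egfr for its role in the decidual response of the stroma, and Errfi1 (Mig-6) as a feedback inhibitor of Egfr that progesterone induces.

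Values are linear intensities, 1 per probe set and array, and array medians lay between 149.9 and 162.2 units. An array correlated with its own group at a mean r of 0.9888 to 0.9925 and with the other group at 0.9672 to 0.9761, over all probe sets. SF1 replicate 2 stood apart in neutrophil genes, whose summed intensity over 6 measured markers was 21930 there and between 441.6 and 923.6 in control. Nearly all of that sum came from S100a8 (11518) and S100a9 (9468). Cxcr2 (228) and Csf3r (564) also lay above their control ranges of 19.1 to 46.8 and 116 to 130 on that array. Mpo (87.6) and Elane (64.1) lay within their control ranges of 77.3 to 98.2 and 43.6 to 71.8 there. Pgr, the locus of the Cre allele, read 4899, 4747 and 4744 in control and 1932, 1719 and 2027 in SF1. Differences below are on the scale log2(intensity + 16), SF1 minus control, with the SE of the limma fit, and a gene was called where its adjusted p was under 0.05. The adjustment covers all 45037 probe sets that were tested. A gene is counted through its brightest probe set, and the levels of different probe sets are not comparable.

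Among the 9 measured members, 2 fell, 0 rose and the other 7 were not called. The members that fell were the ligand gene Hbegf and the receptor gene Erbb2. That is to be read against 16.5% of all genes called, 8.11% lower and 8.37% higher, so the members' share is near that of all genes. After centring each array on its median, the share of called genes that were higher moved from 50.8% to 62.8%. The median log2 difference was -0.06 over the 9 members and -0.05 over all genes. Over the 21 probe sets, 3 were called, all lower, against 14.0% of all probe sets called, 8.08% lower and 5.88% higher. The third was a dimmer probe set of Egfr. Without SF1 replicate 2 the called members were Hbegf, lower, and Tgfa, higher; without control replicate 2 they were Hbegf and Egfr, both lower, and without any other array Hbegf alone.

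**Figure D1:**
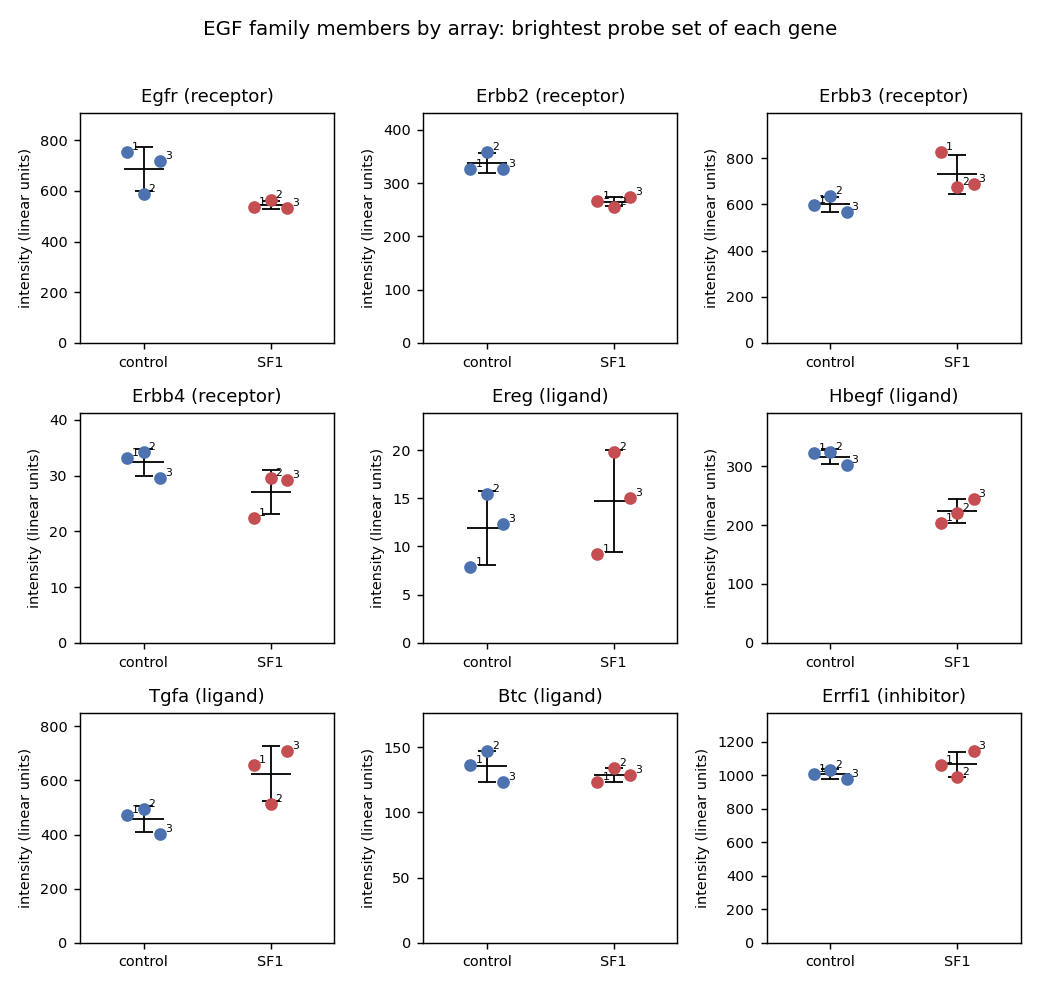
Intensity (linear units, axes from 0) of the brightest probe set of each measured member on the 3 control and 3 SF1 arrays; points are arrays, numbered by replicate, and bars give the mean and SD. The groups do not overlap for Egfr, Erbb2, Erbb4 and Hbegf, which read lower in SF1, or for Erbb3 and Tgfa, which read higher.

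Among the brightest probe sets, the groups did not overlap for 6 of the 9 members, 4 lower and 2 higher in SF1. Over all genes the groups did not overlap for 39.9%, 23.7% lower and 16.2% higher. Of the 21 probe sets 7 did not overlap, against 36.7% of all probe sets.

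Egfr, the receptor of the EGF-like ligands, was measured by 7 probe sets. The brightest, 1435888_at, read 756, 587 and 717 in control and 538, 563 and 531 in SF1. Every SF1 array lay below every control array, with control replicate 2 closest to the SF1 arrays. The log2 difference was -0.32 ± 0.10 (SE), which did not pass the test (limma adjusted p = 0.0762). Probe set 1424932_at read 379, 394 and 385 in control and 254, 227 and 245 in SF1. Both groups were tight and far apart. It fell by 37.3%, or -0.64 ± 0.08 on the log2 scale (95% interval -0.82 to -0.46, limma adjusted p = 0.000904), the largest difference among the 21 probe sets.

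The other 5 Egfr probe sets overlapped between groups and gave log2 differences from -0.08 to 0.17. The annotation lists 1424932_at and 1451530_at under the same sequence record, yet the latter read 104, 76.2 and 104 in control and 80.5, 122 and 127 in SF1. Its log2 difference was 0.17 ± 0.17 (interval -0.21 to 0.55). It is also dim, between the 28.0th and 44.5th percentile of the probe sets on its arrays, while 1424932_at lay between the 59.7th and 72.5th. Probe sets 1454313_at, 1432647_at and 1457563_at also lay below the median of probe sets on all 6 arrays. The last of these was near the floor, between the 6.56th and 9.53rd percentile. A fall thus passed the test on 1 of 7 Egfr probe sets, and several of the others were dim. Probe set 1460420_a_at was not dim, between the 55.29 and 61.35 percentiles. It read 193, 226 and 244 in control and 204, 225 and 195 in SF1. Its log2 difference was -0.08 ± 0.10 (limma adjusted p = 0.645). Which transcripts each of the 7 probe sets detects is not known here.

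Erbb2, the preferred partner of the other receptors, has 1 probe set. It read 326, 359 and 327 in control and 267, 256 and 274 in SF1. The lowest control array stood well above the highest SF1 array. Erbb2 fell by 21.3%, or -0.33 ± 0.08 on the log2 scale (interval -0.51 to -0.15, limma adjusted p = 0.0268). The call did not hold without any of the 6 arrays (adjusted p from 0.0505 to 0.0851), nor after centring on the median (-0.28, adjusted p = 0.0651).

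The promoters of Egfr and Erbb2 are shown because these are the receptor genes with a called probe set. They are the 250 bases before the annotated start, on the plus strand, from RefSeq on GRCm38.p6, at chr11:16751953-16752202 for Egfr and chr11:98412234-98412483 for Erbb2. Capitals mark a match to any motif searched.
Egfr: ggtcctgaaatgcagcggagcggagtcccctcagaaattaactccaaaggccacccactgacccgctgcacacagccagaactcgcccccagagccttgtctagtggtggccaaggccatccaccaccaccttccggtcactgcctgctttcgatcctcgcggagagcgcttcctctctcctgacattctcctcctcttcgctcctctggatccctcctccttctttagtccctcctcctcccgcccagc
Erbb2: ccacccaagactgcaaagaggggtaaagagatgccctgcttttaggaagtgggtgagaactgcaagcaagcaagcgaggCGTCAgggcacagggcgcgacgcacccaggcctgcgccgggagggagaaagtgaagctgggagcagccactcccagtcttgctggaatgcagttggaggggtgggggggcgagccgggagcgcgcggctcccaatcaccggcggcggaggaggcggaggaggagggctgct

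The motifs, searched on both strands, were an SF1 (NR5A) site CAAGGTCA, the full cyclic AMP response element TGACGTCA and its core TGACG, which the full element contains, the AP-1 site TGANTCA, an estrogen response element (GGTCA and TGACC, 3 bases apart) and a progesterone or glucocorticoid response element core (ACA and TGT, 3 bases apart). The Egfr window held none of them. The Erbb2 window held the core TGACG once, on the minus strand, from base 171 to base 167 before the start. Of 32851 promoter windows in the table, 17.8% held that core, 1.33% the SF1 site and 6.75% the AP-1 site. The shares were 1.55% for the full cyclic AMP response element, 0.0639% for the estrogen response element and 5.84% for the progesterone or glucocorticoid core. Of the other members with a window, Areg and Errfi1 held the full cyclic AMP response element and Btc its core alone. Erbb4, Tgfa and a further Errfi1 window held no match. Hbegf, Ereg and Erbb3 were left out of this listing. These are letter matches in a short window and say nothing of binding.

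Erbb3, the neuregulin receptor with little kinase activity, read 596, 635 and 568 in control and 829, 675 and 687 in SF1 on its brighter probe set. All SF1 arrays were higher, SF1 replicate 1 most. The log2 difference of 0.27 ± 0.10 (interval 0.05 to 0.50) was not called (limma adjusted p = 0.106). The other probe set read 186, 231 and 198 in control and 129, 217 and 184 in SF1, with overlap. There SF1 replicate 1, the highest on the first probe set, was the lowest, and the difference was -0.22 ± 0.17 (adjusted p = 0.41).

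Erbb4, the other neuregulin receptor, was near the bottom of the array. It read 33.2, 34.3 and 29.7 in control and 22.5, 29.5 and 29.3 in SF1, between the 4.76th and 9.35th percentile of probe sets. The groups barely separated, and the log2 difference of -0.17 ± 0.09 was not called (limma adjusted p = 0.255). At that intensity the added 16 units compress any change.

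**Figure D2:**
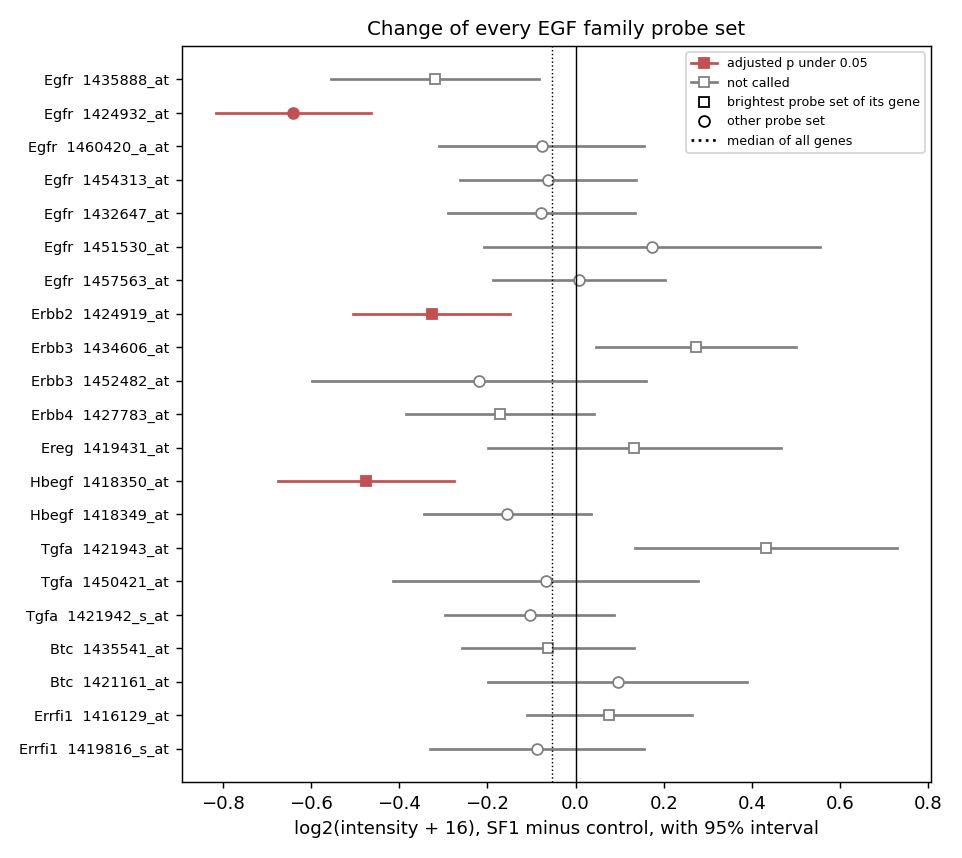
Difference in log2(intensity + 16), SF1 minus control, with its 95% limma interval, for all 21 probe sets; squares are the brightest probe set of each gene, circles the others, red marks an adjusted p under 0.05 and the dotted line the median of all genes. The called probe sets, 1 each of Egfr, Erbb2 and Hbegf, lie at -0.64, -0.33 and -0.48.

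Hbegf, the heparin-binding ligand of Egfr and Erbb4, was the ligand gene that fell. Its brighter probe set, 1418350_at, read 322, 325 and 302 in control and 204, 221 and 245 in SF1. The gap between the groups was wider than the spread within either. Hbegf fell by 29.4%, or -0.48 ± 0.09 on the log2 scale (interval -0.68 to -0.28, limma adjusted p = 0.00822). The call held without each array in turn, with a highest adjusted p of 0.0367. The second probe set, listed under the same sequence record, read 235, 219 and 203 in control and 203, 192 and 188 in SF1. There control replicate 3 and SF1 replicate 1 overlapped, and the difference of -0.16 ± 0.08 was not called (adjusted p = 0.246).

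Clone and predicted gene names were left out of the search for genes most like Hbegf. Among the rest, those whose log2 values followed it most closely over the 6 arrays were Spout1 (Pearson r = 0.9968), Pot1b (0.9961) and Nhsl2 (0.9955). The correlations are given with no test, since they are the highest of many genes over arrays of both groups. Between the groups Nhsl2 was called lower (limma adjusted p = 0.0138), while Spout1 (adjusted p = 0.104) and Pot1b (adjusted p = 0.0509) were not called. No member was called higher, so no such genes are given for a rise.

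Tgfa, an Egfr ligand made by many epithelia, read 472, 494 and 403 in control and 655, 513 and 707 in SF1 on its brightest probe set, 1421943_at. All SF1 arrays were higher, but SF1 replicate 2 lay close to control replicate 2. The log2 difference of 0.43 ± 0.13 (interval 0.14 to 0.73) did not pass the test (limma adjusted p = 0.0609). Without SF1 replicate 2 it was 0.57 and passed (adjusted p = 0.02). The other Tgfa probe sets overlapped between groups, at -0.07 ± 0.15 and -0.10 ± 0.08. On the former, SF1 replicate 2 was the highest array, at 320 against 200 and 262 in SF1 replicates 1 and 3.

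Ereg (epiregulin) was hardly above the floor of the array: it read 7.87, 15.5 and 12.3 in control and 9.27, 19.9 and 15.1 in SF1. These values lie between the 0.573rd and 3.54th percentile, and the groups overlap. No detection call was used here, so whether Ereg stands above background is not known. Btc (betacellulin) read 136, 147 and 123 in control and 124, 134 and 128 in SF1 on its brighter probe set. Its log2 difference of -0.06 ± 0.09 had an interval from -0.26 to 0.13. The other Btc probe set lay between 14.8 and 28.5 units on all arrays. Epgn, Ereg, Areg and Btc follow each other in that order as neighbouring coding genes on GRCm38.p6. Of the 3 neighbours that were measured, 0 were called.

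Errfi1, the inhibitor that binds the Egfr kinase, lay between the 89.2 and 91.2 percentiles of the probe sets on its arrays. It read 1007, 1033 and 977 in control and 1063, 987 and 1141 in SF1. The groups overlapped, and the log2 difference was 0.08 ± 0.08 (interval -0.11 to 0.26, limma adjusted p = 0.561). The second probe set gave -0.09 ± 0.11 (adjusted p = 0.617). For comparison, Pgr, the gene of the progesterone receptor, fell by 1.34 on the log2 scale on the same arrays (adjusted p = 3.23e-05).

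Probe sets of 1 gene gave differing log2 values above. The exact permutation test used for the difference itself could not pass with 3 arrays a group. The log2 ratio of 2 probe sets within an array was compared between groups for 7 pairs, the 2 brightest of each gene and the Egfr pair with a shared record. That Egfr pair was taken because 1 of its probe sets was called. For that Egfr pair, 1424932_at over 1451530_at, the ratio went from 1.87 ± 0.25 in control to 1.06 ± 0.37 in SF1 (SD, n = 3). The two-sided exact permutation p was 0.1, or 0.233 when adjusted over the 7 pairs. The 2 Hbegf probe sets differed by 0.50 ± 0.06 in control and 0.18 ± 0.17 in SF1 (exact permutation p = 0.1). With 3 arrays a group, 0.1 is the smallest p this test can give, so none of the 7 pairs could pass.

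**Figure D3:**
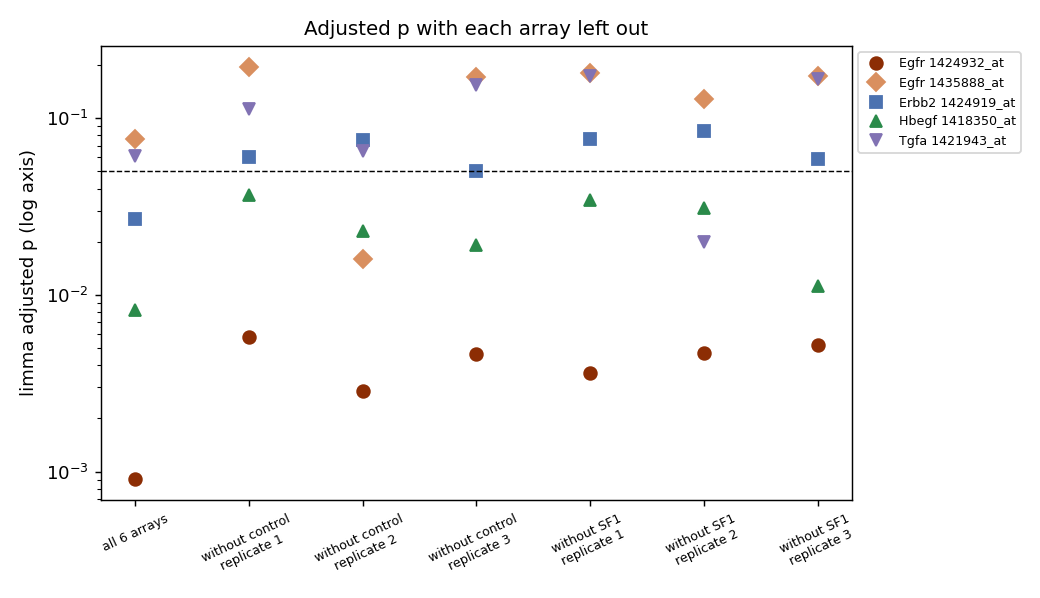
Limma adjusted p (log axis) of 5 probe sets with all 6 arrays and with each array left out; the dashed line is 0.05. Egfr 1424932_at and Hbegf stay below the line throughout, and Erbb2 lies below it with all 6 arrays and above it without any of them, from 0.0505 to 0.0851.

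The rest of the pathway was taken from 5 lists of 67 genes, of which 62 were measured. Of these, 10 rose, 8 fell and 44 were not called, 29.0% called against 16.5% of all genes, with a median log2 difference of -0.03. Without SF1 replicate 2, 7 of the 62 rose and 4 fell, beside 2163 of all 18193 genes called in that fit. Without SF1 replicate 1, 5 rose and 4 fell, beside 1933 of 18193 genes. Most of the pathway genes are among the brighter ones. With the brighter probe sets alone, 21 of 54 pathway genes were called, beside 3244 of 11687 genes in all. The part of intensity in the gap between 29.0% and 16.5% was not tested.

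Of 6 further ligands of the family, 2 fell and 0 rose, 33.3% called against 16.5% of all genes. Nrg4, a neuregulin that binds Erbb4, read 211, 231 and 195 in control and 142, 137 and 102 in SF1. The groups stood clear of each other (log2 difference -0.68 ± 0.12, limma adjusted p = 0.00732), and the call held without each array. Nrg2, a neuregulin of Erbb3 and Erbb4, went from 154 ± 13 to 116 ± 6.73 (SD, n = 3; -0.37, adjusted p = 0.0265), a call that held only without control replicate 2 or SF1 replicate 2 among the 6 fits with 1 array left out (highest adjusted p = 0.0926). Egf, Epgn, Nrg1 and Nrg3 were not called (-0.14, -0.21, -0.03 and 0.12), and each lay below the median of probe sets on all 6 arrays. Egf was near the floor, between the 5.60th and 7.79th percentile.

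Genes of ligand release gave 1 rise and 1 fall among 11, 18.2% called, near the 16.5% of all genes. Adam8, a metalloproteinase of myeloid cells, read 205, 127 and 212 in control and 299, 573 and 359 in SF1. It was highest in SF1 replicate 2, where the neutrophil genes S100a8, S100a9, Cxcr2 and Csf3r were also highest, though not Mpo or Elane (1.09 ± 0.25, adjusted p = 0.0207; 0.83 without that array, adjusted p = 0.0463). The part of those cells in it was not tested. Adam12, which can release Hbegf, fell from 1014 ± 40.4 to 781 ± 79.6 (-0.37, adjusted p = 0.032), a call that held in 1 of 6 such fits, that without SF1 replicate 3 (highest adjusted p = 0.0967). Adam17, the main protease of these ligands and named here for that role after its values were seen, read 656 ± 22.6 and 800 ± 51.6 and was not called (0.28, adjusted p = 0.0542).

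Of 16 genes that restrain the receptors or their signal, 2 rose and 1 fell, 18.8% called, near the 16.5% of all genes. Ptprj, a receptor-type tyrosine phosphatase, read 235, 199 and 195 in control and 362, 396 and 340 in SF1. Each SF1 array was far above control (0.76 ± 0.10, adjusted p = 0.00132), and the call held without each array. Ndrg1 rose from 1496 ± 70.2 to 1903 ± 90.0 (0.34, adjusted p = 0.023), a call that held only when replicate 3 of either group was left out (highest adjusted p = 0.0848). Lrig3, of a family of leucine-rich membrane proteins that act on ErbB receptors, fell from 427 ± 35.4 to 319 ± 28.6 (-0.40, adjusted p = 0.0274), a call lost without any array but control replicate 1 (highest adjusted p = 0.0853).

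Of 14 measured adaptors and kinases, 2 rose and 4 fell, 42.9% called against 16.5% of all genes. Gab2, a docking protein, read 849, 800 and 796 in control and 1274, 1264 and 1219 in SF1. Its rise had the lowest adjusted p of the 62 genes (0.61 ± 0.07, adjusted p = 0.000928). Stat3, a transcription factor downstream of receptor kinases, rose from 941 ± 185 to 1434 ± 134 (0.61, adjusted p = 0.0254), a call lost without SF1 replicate 1 or 2 (highest adjusted p = 0.0863). Braf, a kinase of the MAP kinase cascade, fell from 1570 ± 76.3 to 1113 ± 47.9 (-0.49, adjusted p = 0.00419). Plcg1, a phospholipase that receptors activate, fell from 1611 ± 121 to 1182 ± 99.2 (-0.44, adjusted p = 0.016), a call lost without SF1 replicate 2 (adjusted p = 0.0559). Shc1, an adaptor, fell from 502 ± 18.2 to 385 ± 11.1 (-0.37, adjusted p = 0.0122). The remaining fall, named after its value was seen, was that of the docking protein Gab1 (-0.29, adjusted p = 0.0318), and its call held in 0 of the 6 fits with 1 array left out (highest adjusted p = 0.0997).

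Of 15 feedback and immediate response genes, which growth factors and many other stimuli induce, 5 rose and 0 fell, with a median log2 difference of 0.25. The share called was 33.3%, against 16.5% of all genes. Fos, a subunit of AP-1, read 398, 216 and 284 in control and 687, 1036 and 506 in SF1. SF1 replicate 2 was the highest (1.25 ± 0.27, adjusted p = 0.0172; 0.98 without that array, adjusted p = 0.0436), but it did not pass when SF1 replicate 1 or control replicate 3 was left out (highest adjusted p = 0.0548). Junb, its partner, read 465, 486 and 433 in control and 704, 1148 and 630 in SF1, with the same array on top (0.77, adjusted p = 0.0324; 0.52 without it, adjusted p = 0.0176). Its call was lost without any control replicate or SF1 replicate 1 (highest adjusted p = 0.0908). Dusp5, a phosphatase of ERK, read 250, 200 and 256 in control and 346, 363 and 358 in SF1. The SF1 arrays were close together here (0.57 ± 0.10, adjusted p = 0.00691). The other 2 that rose, named after their values were seen, were Phlda1 (0.57, adjusted p = 0.00428) and Egr1 (0.48, adjusted p = 0.0176), the latter lost without SF1 replicate 1 or 2 (highest adjusted p = 0.0597). Dusp6, Etv4 and Etv5, known feedback targets of ERK named after their values were seen, were not called (-0.04, -0.22 and 0.16). Etv4 was dim, between the 22.9th and 33.1st percentile. Dusp4 was not called either (0.25).

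**Figure D4:**
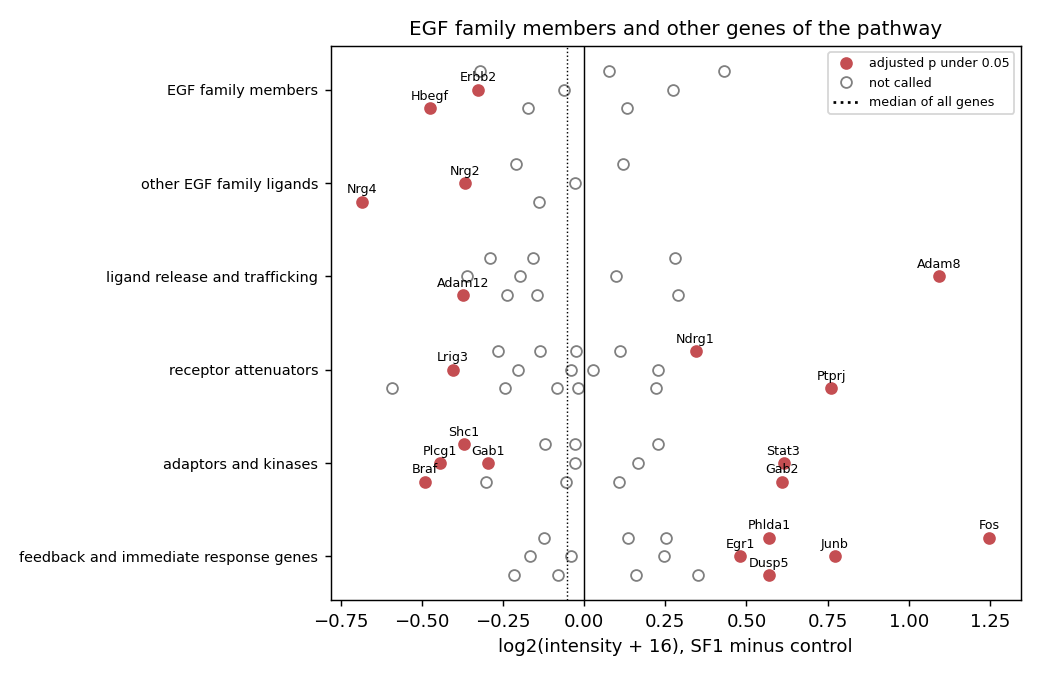
Difference in log2(intensity + 16), SF1 minus control, of the 9 measured members and of 62 other genes of the pathway, by list; red points passed an adjusted p under 0.05 and carry their name, and vertical spread within a list has no meaning. Called genes lie on both sides of 0 in 3 of the 5 lists, while those of the other EGF family ligands fell and those of the feedback list rose.

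These are whole horns, and in such samples fewer cells of a type and less RNA per cell cannot be told apart. Markers of some cell types changed with genotype, and those of others were not called. Of 8 epithelial markers 4 rose and 1 fell, and their summed intensity was 16310 to 17160 in control and 19120 to 21140 in SF1. Of 8 stromal markers 0 rose and 6 fell, from a sum of 21800 to 23040 to a sum of 15570 to 16350. Vim (-0.02) and Col6a4 (0.15) were the stromal markers not called. Bright probe sets weigh most in such sums, and Vim was the brightest of the 8 (mean 6745 in control, 6661 in SF1). Of 6 endothelial markers all 6 fell, from 4065 to 4177 to 2491 to 2905. Of 7 macrophage markers 5 rose (4553 to 6300 against 7526 to 11120), and of 6 mast cell markers 4 rose (749.7 to 1005 against 1577 to 1827). Of 7 smooth muscle markers 0 were called (28340 to 31090 against 30670 to 33070), and of 4 measured Schwann cell markers 0 were called (427.9 to 477.8 against 415.4 to 533.7). All 5 markers of ciliated cells rose (1091 to 1174 against 5506 to 8751). Of 6 neutrophil markers 0 were called, and SF1 sums ran from 595.7 to 21930. No marker was at 0 on any array. The part of these shifts in the values of Egfr, Erbb2, Hbegf and the other genes above was not tested.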

How the data were processed

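The authors deposited 1 linear intensity per probe set and array. The array type and the pooling are per the labels' protocols. How background, scaling and summarization were done is not given in the sources available here; a subtracted background would distort dim values. Of 45101 probe sets, 64 Affymetrix controls were set aside. Names came from a platform annotation table (34945 tested probe sets with 1 symbol, 932 with several, 9160 with none). Each gene was counted through the probe set whose mean log2 value was highest. Intensities were fitted as log2(value + 16) with limma 3.58.1 (lmFit, eBayes) in R 4.3.3, with Benjamini-Hochberg adjustment over 45037 probe sets; single-gene p-values are from this fit. The fit was tested on simulated data with independent normal noise, which cannot show whether the assumptions of the fit hold for these arrays. The labels describe separate pools and no batch, so p-values measure the spread between pools, and 3 arrays a group limit the precision.

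The members and lists were chosen with earlier results of these data known. Named were all members, Pgr, and up to 3 called genes with the largest rise and fall from each pathway list. Named too were the 3 genes most like the called members with the largest rise and fall, clone and predicted gene names left out. Other pathway genes were named after their values were seen. Pairs of probe sets were compared with exact permutation tests in scipy 1.17.1. Alternatives were array weights, a block for the replicate number, median centring, quantile normalization, testing brighter probe sets alone, leaving out 1 array, averaging the probe sets of each gene, a variance trend with robust eBayes, pseudocounts of 64 and 1, and an adjusted p under 0.01.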

Additional observations from a re-analysis of the deposited data

How the results depend on the processing

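The number of called members, 2, was 1 with median centring, with the replicate block and at an adjusted p under 0.01. It was 4 with the brighter probe sets alone, where 6 members were tested and 3244 of 11687 genes were called. It was also 4 with trend and robust and with array weights. In each of these fits Egfr (lower) and Tgfa (higher) joined Hbegf and Erbb2. With quantile normalization and with a pseudocount of 64 the number was 3, as Tgfa (higher) joined Hbegf and Erbb2. It ranged from 1 to 2 with 1 array left out: 1 (Hbegf) without control replicate 1, control replicate 3, SF1 replicate 1 or SF1 replicate 3. Hbegf was called under every alternative run. The count of pathway genes, 18, was 10 with the replicate block, 6 at an adjusted p under 0.01 and from 9 to 17 with 1 array left out. The count over all 18193 genes, 2998, was 1558 at an adjusted p under 0.01 and from 1933 to 2365 with 1 array left out. It was 2838 with median centring, 2071 with the replicate block and 2913 with quantile normalization. With trend and robust it was 3528, with array weights 3191 and with a pseudocount of 64 it was 3593. Averaging the probe sets of each gene turned the sign of Btc (0.017) and Errfi1 (-0.0050), neither of them called, and moved Egfr from -0.32 to -0.14, Tgfa from 0.43 to 0.09, Erbb3 from 0.27 to 0.03 and Hbegf, still called, from -0.48 to -0.32. The causes were not tested. The replicate numbers did not pair the arrays: deviations of same-numbered arrays from their group means correlated at -0.0633, -0.101 and -0.184. Ereg, Erbb4, Egf, the dimmer Btc probe set and the Egfr probe set 1457563_at were too dim for a change to be read.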
